A study of Homo sapiens with 2 samples.

Results

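The highest-scoring GATA2 peaks on the autosomes of LNCaP cells are described here. They were chosen by the authors' peak score alone: every peak on chromosomes 1 to 22 with a score of 1000 or more, which took 1344 of the 36797 peaks in the deposited list. That is 3.79% of the 35488 autosomal peaks. The score is the peak caller's own value and has no stated unit, so it ranks peaks within the list and does not measure how much GATA2 is bound. The chromatin came from LNCaP, an established prostate cancer cell line of human origin that responds to androgen, in 1 group of 2 biological replicates. The cells were grown in RPMI with 10% fetal bovine serum and held for 3 days before the assay in medium with 5% charcoal-treated serum, from which steroid hormones are largely removed. No androgen-treated, input or other control group was among the samples used here, and LNCaP is a single line.

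GATA2 is a zinc-finger transcription factor that recognises DNA sites with a GATA core. It is best known for its role in blood stem cells and endothelium. In prostate cells it works at enhancers together with the androgen receptor and the forkhead factor FOXA1, and helps to open chromatin for the receptor. In ChIP-seq, DNA fragments bound by the factor pile up on both sides of its site, and the peak caller reports the span of the pile-up and a score for its excess. Peak width and score therefore come from the same reads. Both, and every position below, come from 1 list made from the 2 replicates in a way not given in the sources used here, so no value has a replicate error and none was tested. Intervals cover counting over peaks only, and neighbouring peaks are not independent of each other.

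The high-scoring peaks were mostly of one size. Their median width was 494 bp (95% interval 488 to 500 bp), the middle 50% measured 439 to 588 bp, and 1231 of them, or 91.6% (Wilson 95% interval 90.0% to 93.0%), lay between 350 and 800 bp. The other 34144 autosomal peaks had a median width of 289 bp, and 71.1% of those were under 350 or over 800 bp wide. The next 1344 autosomal peaks by score, from 787.9 to 999.8, are the nearest class for comparison. Their median width was 443.5 bp (95% interval 439 to 450 bp) and 92.6% lay between the same limits. Width and score were ranked alike among the other autosomal peaks, with a Spearman's rho of 0.82 over 34144 peaks. Among the 1344 high-scoring peaks rho was 0.24, and among the next 1344 it was 0.079. These correlations are across peaks of 1 list, and a narrow range of scores lowers such a correlation by construction.

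Scores were concentrated near the threshold. The median score was 1190 (95% interval 1178 to 1203), 412 peaks (30.7%) scored under 1100 and 178 scored 1500 or more. The lowest-scoring peaks that entered were chr9:94707537-94707959 at 1000.31, chr8:53499229-53499614 at 1000.35 and chr20:39715523-39716027 at 1000.62. Just outside were chr12:77738290-77738862 at 999.79, chr3:174779953-174780451 at 999.11 and chr10:69018606-69019539 at 998.88. These peaks measured 423, 386 and 505 bp inside the threshold and 573, 499 and 934 bp outside it. No step in score separates them.

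Unusual widths were more frequent toward the top of the score range. Of the peaks scoring 1000 to 1100, 6.31% fell outside 350 to 800 bp. The share was 10.2% at 1400 to 1500 and 13.1% at 1500 to 2000. At 2000 or more it was 13 of 25 peaks, 9 of them wide and 4 narrow. The median width went from 472.5 bp at 1000 to 1100 to 570 bp at 1500 to 2000. A list of the very top of the score range therefore holds a different mix of widths from the class as a whole.

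**Figure D1:**
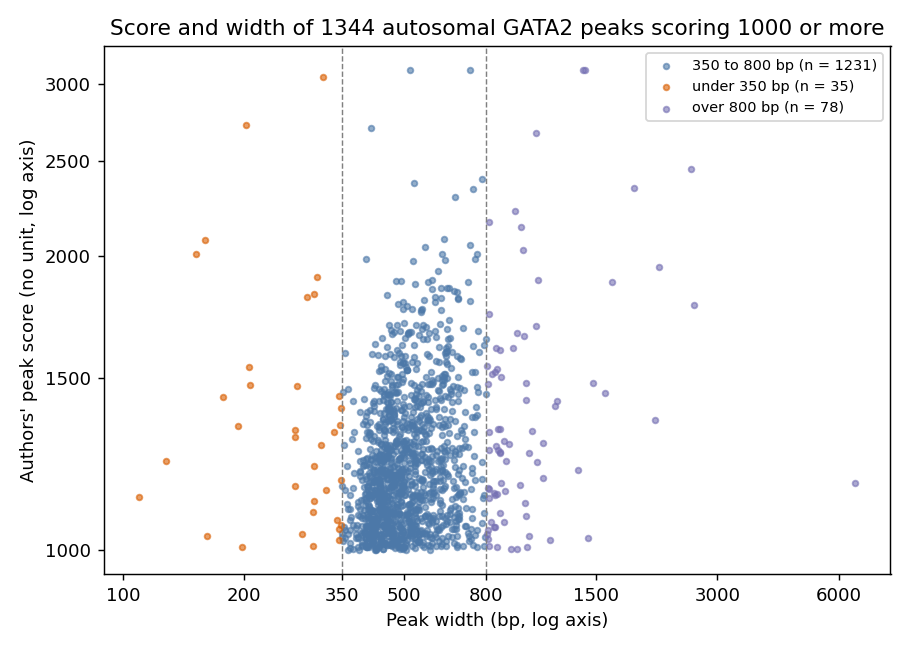
Each point is 1 of the 1344 autosomal peaks scoring 1000 or more, with its width in bp (log axis) against the authors' score (log axis). Dashed lines mark 350 and 800 bp. The 1231 peaks between the lines form 1 dense cloud, while 13 of the 25 peaks at 2000 or more lie outside the lines.

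Among peaks of 350 to 800 bp, chr17:51183090-51183818 (729 bp) and chr2:88124366-88124882 (517 bp) scored highest, both at 3100. The 4 peaks at exactly 3100 hold the highest value in the list, where the score may be capped, and were not ranked against each other. Next was chr4:12641854-12642266 (413 bp) at 2703. It was followed by chr4:42854634-42855413 (780 bp) at 2400, chr1:156186185-156186714 (530 bp) at 2377 and chr18:6352048-6352790 (743 bp) at 2340. The remaining 4 were chr14:38798514-38799181 at 2297, chr6:147226331-147226959 at 2082, chr1:244882799-244883528 at 2051 and chr18:71198617-71199179 at 2044. None of the 10 had another peak of any score within 10 kb, a distance at which 70.8% of all high-scoring peaks of this width and 66.6% of the other autosomal peaks were also alone. The closest neighbour lay 13.9 kb away for the peak at 244882799 on chromosome 1, the least remote, and 102.6 kb away for that at 6352048 on chromosome 18, the most remote. The nearest other high-scoring peak was between 85.7 kb (chromosome 14) and 3868 kb (chromosome 2) away.

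Narrow peaks, under 350 bp, numbered 35, or 2.60% of the class. Their scores were not low for the class, which they entered by score alone. The median was 1304 (95% interval 1152 to 1436), against 1182 (95% interval 1173 to 1198) for the 1231 peaks of 350 to 800 bp. The interval for narrow peaks includes 1182, so the order of these medians is not resolved. In the next class, also cut by score, 54 narrow peaks scored 846.0 at the median and 1244 peaks of 350 to 800 bp scored 875.9. No intervals were computed for those medians. Over all other autosomal peaks these medians were 156.7 and 467.7. The highest were chr13:110076468-110076781 (314 bp) at 3051, chr18:45379613-45379814 (202 bp) at 2726, chr7:45291563-45291722 (160 bp) at 2077, chr11:73221717-73221868 (152 bp) at 2011 and chr17:33478110-33478413 (304 bp) at 1903. The narrowest of all was chr18:2842248-2842357, at 110 bp and a score of 1133. By width, 8 measured under 200 bp, 14 measured at least 200 but under 300 bp and 13 measured 300 bp or more. Their widths took 28 distinct values: 3 measured 298 bp and 3 measured 348 bp, and 12 of the 35 shared a width with another narrow peak. Widths are whole numbers of bp, and such repeats were not counted over other peaks, so they are not read as a trait of these peaks. The narrow peaks lay on 18 chromosomes, and 3 of them (8.57%) lay near a long gap. Near a long gap means within 1 Mb of an interval of over 2.5 Mb without any peak. For high-scoring peaks of 350 to 800 bp that share was 0.57%. Among narrow peaks it was 0% in the next class and 2.87% over all other autosomal peaks. These differences were not tested.

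Wide peaks, over 800 bp, numbered 78, or 5.80% of the class, and scored 1287 at the median (95% interval 1209 to 1426). In 49 of them the width was at most 1000 bp, so most lay just past the limit. The highest-scoring were chr3:96336025-96337429 (1405 bp) and chr1:121484046-121485438 (1393 bp), both at 3100. They were followed by chr14:32953332-32954395 (1064 bp) at 2670, chr7:61967154-61969733 (2580 bp) at 2452 and chr5:79946203-79948068 (1866 bp) at 2349. The widest, chr10:42383244-42389823, measured 6580 bp and scored 1171. Of the 8 peaks over 1500 bp, 5 lay near a long gap. Among the wide peaks of at most 1500 bp it was 4, and of those 49 measured at most 1000 bp and 21 more than that. Near a long gap lay 11.5% of all 78 wide peaks, 8.70% of the wide peaks of the next class and 20.1% of the other wide autosomal peaks. In all, 19 of the 1344 high-scoring peaks (1.41%) lay near a long gap. For the other autosomal peaks the share near a long gap was 2.63%, and for the next 1344 it was 1.49%. Of the 19, 12 (63.2%) were narrow or wide, whereas 91.6% of the whole class measured 350 to 800 bp. Peaks of unusual width near long gaps also occurred outside this class. Among the other autosomal peaks near a long gap, 691 were narrow, 33 were wide and 175 measured 350 to 800 bp. Of those other peaks, 71.1% were narrow or wide wherever they lay. In the next class these counts were 0, 4 and 16, and 92.6% of that class measured 350 to 800 bp. Differences between the classes were not tested. Whether the narrow and wide peaks are GATA2 sites was not tested.

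High-scoring peaks were found on every autosome, at 0.50 per Mb of usable length (exact Poisson 95% interval 0.47 to 0.53). Usable length is the distance from the first to the last peak of a chromosome less the long gaps. Densities differed 2.37-fold between the extremes. The highest were on chromosome 17, with 54 peaks at 0.69 per Mb (95% interval 0.52 to 0.90), chromosome 9, with 80 at 0.65 (0.52 to 0.81), and chromosome 1, with 148 at 0.65 (0.55 to 0.76). The lowest were on chromosome 13, with 28 peaks at 0.29 per Mb (0.19 to 0.42), chromosome 16, with 25 at 0.32 (0.21 to 0.47), and chromosome 19, with 18 at 0.32 (0.19 to 0.51). The intervals of chromosomes 1, 9 and 17 lay above the all-autosome value. Those of chromosomes 2, 4, 13 and 16 lay below it, while the interval of chromosome 19 included it. With long gaps left in the length, chromosome 9 had 0.57 per Mb (0.45 to 0.71), which included the all-autosome 0.48. At a threshold of 1200 the all-autosome value was 0.24, and it was included by chromosome 17 at 0.31 (0.20 to 0.46) and chromosome 4 at 0.19 (0.13 to 0.26). Chromosome 17 then lay below chromosomes 9 (0.38) and 1 (0.35). Chromosome copy number in these cells was not measured, and its part in these densities was not tested.

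The spread over chromosomes was in part like that of the next 1344 peaks, with a Spearman's rho of 0.56 between the densities of both classes over the 22 autosomes. No intervals were computed for the next class, so differences on single chromosomes were not separated from counting noise. On chromosome 17 there were 37 peaks of that class, at 0.47 per Mb, and on chromosome 9 there were 62, at 0.51 per Mb, both below the upper class. Chromosome 22 went the other way, with 14 high-scoring peaks at 0.40 per Mb (95% interval 0.22 to 0.67) and 22 of the next class at 0.63. Chromosome 1 was high in both classes, at 0.65 and 0.71 per Mb. Chromosomes 13 and 16 were low in both, with 0.29 and 0.31 per Mb on chromosome 13 and 0.32 and 0.29 on chromosome 16. As a share of all peaks on the chromosome, high-scoring peaks made up from 2.48% on chromosome 13 (Wilson 95% interval 1.72% to 3.56%) to 5.19% on chromosome 9 (4.19% to 6.41%). Chromosome 19, which had few peaks of either class per Mb, was close to the autosomal background by this measure, with 18 of its 483 peaks (3.73%) scoring 1000 or more. Differences between the classes were not tested.

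**Figure D2:**
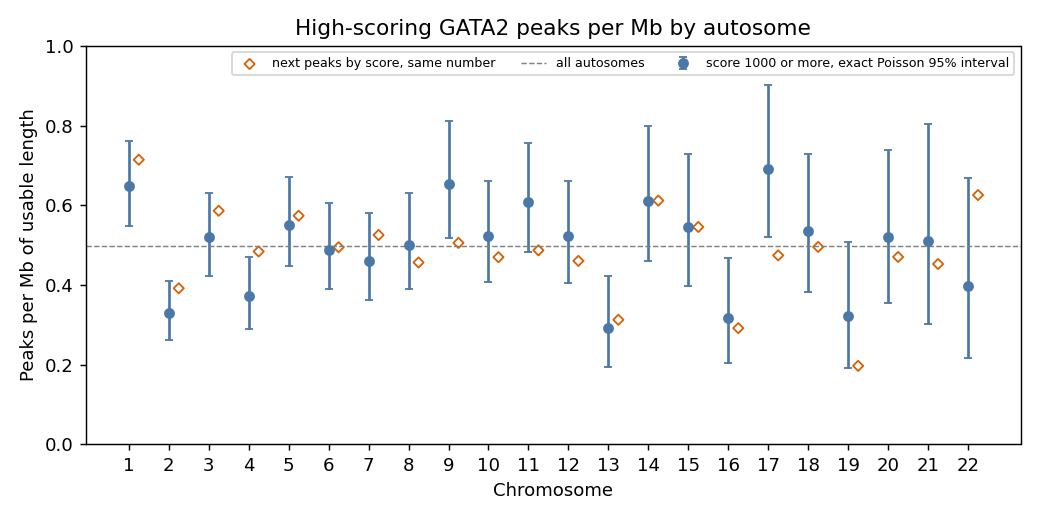
High-scoring peaks per Mb of usable length on each autosome (filled circles, with exact Poisson 95% intervals), and the next 1344 autosomal peaks by score (open diamonds, no intervals drawn). The dashed line is the all-autosome value of 0.50 per Mb; on this length and threshold the intervals of chromosomes 1, 9 and 17 lie wholly above it and those of 2, 4, 13 and 16 wholly below.

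Within chromosomes the high-scoring peaks were thinly spread. The median distance from one to the nearest other was 580.0 kb (95% interval 533.4 to 657.2 kb), and for the next 1344 peaks, a class of equal number, the nearest of their own class lay at a median of 622.8 kb (580.5 to 687.5 kb). Those intervals overlap. Only 156 high-scoring peaks (11.6%) had another within 100 kb, against 179 (13.3%) in the next class. The longest interval without a high-scoring peak was 29.0 Mb on chromosome 9, followed by 23.9 Mb on chromosome 1 and 22.3 Mb on chromosome 16. Each of these spans a long gap. The fourth, 16.0 Mb on chromosome 4 (135420832 to 151445530), spans none. It held 214 weaker peaks with a median score of 203.1 and a highest score of 952.6, so this interval held GATA2 peaks, none of which reached the threshold.

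Of the 2722 autosomal bins of 1 Mb that held any peak, 1017 (37.4%) held a high-scoring one. Most of these, 757, held 1, and 206 held 2. At most 5 fell in a bin, which occurred on chromosome 1 from 204 to 205 Mb (5 of 18 peaks) and on chromosome 11 from 10 to 11 Mb (5 of 23 peaks). Another 9 bins held 4. Among these 11 bins, singled out after their values were seen, chromosome 19 from 51 to 52 Mb had the fewest peaks: 4 of its 9 peaks (44.4%) scored 1000 or more. In the other 10 bins that share ran from 12.9% to 30.8%.

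Close groups of high-scoring peaks were few. Within 10 kb of another lay 32 of them, or 2.38% (Wilson 95% interval 1.69% to 3.34%), and 20 of the next class lay as close to one of their own, or 1.49% (0.97% to 2.29%). None had another within 2 kb. The 32 formed 13 pairs and 2 triples. The first triple, on chromosome 8, comprised chr8:3031986-3032583 (score 1204), chr8:3037286-3037917 (1164) and chr8:3040548-3041312 (1595), over 8.65 kb between outer centres. The second, on chromosome 9, comprised chr9:137248812-137249265 (1271), chr9:137252700-137253146 (1581) and chr9:137259534-137260013 (1699), over 10.7 kb. In neither triple did a weaker peak lie between the members. The 5 smallest distances between centres included 3 within these triples, at 3.33, 3.88 and 5.32 kb. The others were the pair chr13:77742171-77742727 (1270) and chr13:77745590-77746059 (1195), 3.38 kb apart, and the pair chr11:86711117-86711598 (1785) and chr11:86716314-86716766 (1826), 5.18 kb apart. The 2 peaks of the chromosome 11 pair were alike in score and also in width, at 482 and 453 bp.

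The pair on chromosome 19 belonged to a longer run. Linking high-scoring peaks whose successive centres lay within 50 kb, a limit set after the distances were seen, gave 5 runs of 3 peaks and none longer. On chromosome 19 the run was chr19:51345224-51345841 (score 1761), chr19:51353743-51354422 (1814) and chr19:51372568-51373209 (1619), over 27.4 kb. These were 3 of the 18 high-scoring peaks of that chromosome, they measured 618, 680 and 642 bp, and no weaker peak lay between them. Its median score of 1761 was the highest of the 5 runs; the others, on chromosomes 1, 8, 9 and 11, had medians of 1207, 1204, 1581 and 1147. The run on chromosome 11, from chr11:10069935-10070409 (1070) through chr11:10087787-10088474 (1147) to chr11:10108703-10109225 (1767), covered 38.8 kb and had 2 weaker peaks inside it.

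**Figure D3:**
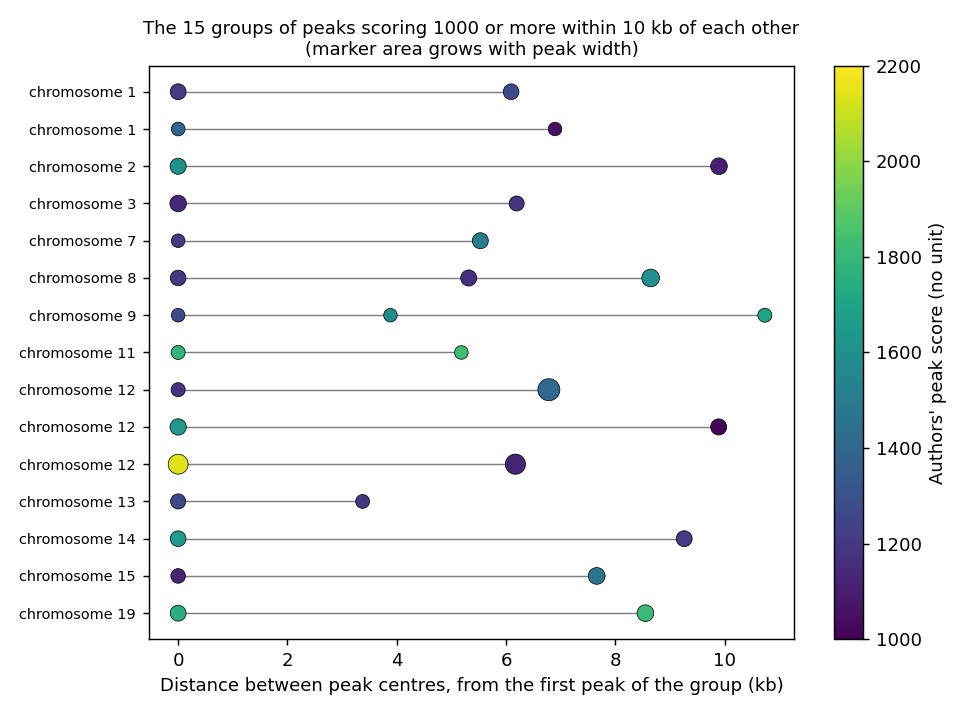
The 15 groups of high-scoring peaks with centres within 10 kb of each other, 1 row per group. The horizontal axis is the distance in kb from the first centre of the group, colour is the authors' score and marker area grows with width; the 2 groups with 3 markers are the triples on chromosomes 8 and 9.

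Weaker companions were common but not general. A companion is any other peak with its centre within 10 kb, and 396 high-scoring peaks had at least 1, or 29.5% (Wilson 95% interval 27.1% to 32.0%). For the other autosomal peaks the share was 33.4% (32.9% to 33.9%), and for the next 1344 it was 30.7% (28.3% to 33.2%). Counting only companions that score under 1000, the share was 27.7% (25.4% to 30.1%), and 29.4% (27.0% to 31.9%) for the next 1344. With companions of any score counted, 948 high-scoring peaks, or 70.5%, stood alone at this distance, 316 had 1 companion, 70 had 2 and 10 had 3 or more. Across the list the share was 37.4% for scores of 80 to 100 and 30.6% at 300 to 400. In the bands above 300 it lay between 28.3% and 34.1% with no steady direction, including 30.9% (24.57% to 38.03%) at 1500 or more.

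**Figure D4:**
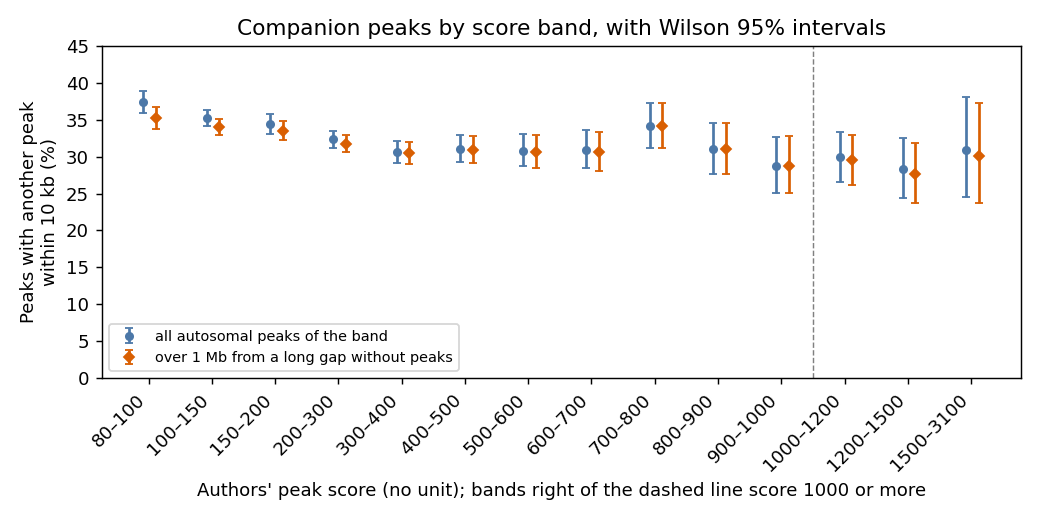
Share of autosomal peaks with another peak within 10 kb, by band of the authors' score, with Wilson 95% intervals, for all peaks (circles) and for those not near a long gap (diamonds). Bands right of the dashed line score 1000 or more; the share is highest at 80 to 100, where it is 37.4% for all peaks and 35.3% away from the gaps.

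In score the companions resembled the rest of the list. The 455 distinct companions scoring under 1000 scored 201.4 at the median (95% interval 182.8 to 228.7), and the other autosomal peaks 205.5. Of the companions 12.3% scored 80 to 100, 37.1% scored 100 to 200, 35.2% scored 200 to 500 and 15.4% scored 500 to 1000. The same bands held 12.2%, 36.4%, 36.6% and 14.8% of the other autosomal peaks. In width they were larger, with a median of 334 bp (321 to 347 bp) against 289 bp. A companion had a median of 16.4% of its neighbour's score, and in 11.5% of the 460 pairs it had more than 50%, shares that depend on the cut at 1000 between the partners. Weaker companions flanked the high-scoring peak on both sides in 38 cases.

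Companions did not crowd against the high-scoring peak. Their median distance was 6.08 kb, with 1.93 companions per 100 high-scoring peaks at up to 1 kb, 1.34 at 1 to 2 kb and 5.73 at 6 to 7 kb. Called peaks do not overlap, so their own widths limit how close centres can lie. The part of widths in the low value below 1 kb was not tested. In the next class the corresponding values were 1.86, 2.68 and 4.09. At 1 to 2 kb these rest on 18 and 36 pairs.

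**Figure D5:**
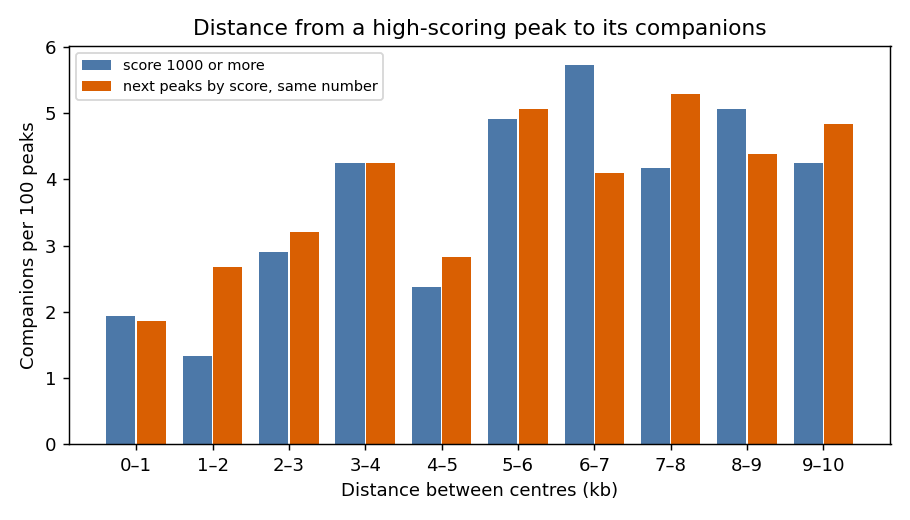
Companions per 100 peaks in 1 kb steps of distance between centres, for the 1344 high-scoring peaks (left bar of each pair) and the next 1344 autosomal peaks by score (right bar). In both classes each 1 kb step up to 3 kb is lower than every step beyond 5 kb.

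Companion shares differed with width among the high-scoring peaks. They were not computed by width for the other classes, so this is not read as a trait of the class. Peaks of 350 to 800 bp had a companion in 359 of 1231 cases, or 29.2% (26.7% to 31.8%). Narrow peaks had one in 4 of 35 cases (11.4%, 4.54% to 26.0%), and wide peaks in 33 of 78 (42.3%, 32.0% to 53.4%). Without the 9 wide peaks near a long gap, of which 7 had a companion, the share for wide peaks was 37.7% (27.2% to 49.5%), an interval that overlaps that of peaks of 350 to 800 bp. Wide peaks also had no nearest neighbour farther than 87.7 kb, whereas 75 peaks of 350 to 800 bp (6.09%) and 4 narrow peaks were over 100 kb from any other. The most remote high-scoring peak was narrow: chr19:48151578-48151875, 298 bp wide with a score of 1123, lay 496.0 kb from the nearest peak of any score.

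The peaks with the most companions lay mostly near long gaps. The wide peak chr2:92290337-92291770 (score 1030) had 7 companions, scoring from 92.74 to 430.0, the nearest 0.95 kb away. On chromosome 8 the wide peak chr8:43793155-43794508 (1209) had 6, scoring from 81.31 to 281.5. Of the 2 peaks on chromosome 20 with 4 companions, chr20:26189753-26190275 (1098) had all 4 within 1.20 kb, scoring from 110.6 to 341.9, and chr20:29829331-29829834 (1086) had 4 scoring from 86.48 to 157.9. All 4 of these high-scoring peaks lay near a long gap. The fifth, chr1:207496720-207497168 (1053), did not. Its 4 companions ranged more widely in score: chr1:207489817-207490278 (1393), itself a high-scoring peak, chr1:207501810-207502167 (580.8), chr1:207504846-207505179 (502.3) and the nearest, chr1:207496088-207496361 (88.90).

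Prostate genes were not placed against these positions. A list of 50 autosomal genes known in prostate cells or prostate cancer was drawn up, and a RefSeq gene table of GRCh38.p14 matched all 50 by symbol. The peaks are on hg19, and positions were not converted between the builds, so only the chromosome of a gene was read from it. The table puts KLK2 and KLK3, which encode secreted kallikrein proteases including prostate-specific antigen, on chromosome 19, the chromosome of the run of 3 peaks from 51345224 to 51373209. TMPRSS2, an androgen-induced membrane protease, and ERG, its fusion partner in many prostate cancers, are on chromosome 21, which had 18 high-scoring peaks. FOXA1 is on chromosome 14, with 54. These were 3.14% of the peaks on chromosome 21 and 4.23% of those on chromosome 14, against 3.79% over all autosomes. The 50 genes lay on 17 chromosomes, and those named here are examples. Sharing a chromosome places no gene near a peak. Distance to genes and the presence of GATA motifs were not analysed here, and no peak sequence is printed, since no hg19 sequence was used.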

How the data were processed

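GATA2 ChIP-seq of 2 replicate LNCaP samples is represented by 1 deposited peak list. The submitters' processing notes name Bowtie and the build hg19, and the deposited peak names show that MACS was the caller. The sources used here do not give tool versions, a control library or how replicates were combined. The deposited score of each peak is the authors' value and has no stated unit. No read counts are listed, so the depth behind a peak is unknown.

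Starts were made 1-based, widths are end less start as deposited, and distances are between midpoints. Width limits were 350 and 800 bp. Long gaps are intervals of over 2.5 Mb between neighbouring peaks (19 on autosomes). Medians have order-statistic and shares Wilson 95% intervals. Counting of companions and nearest distances was tested on simulated data. Named peaks follow a rule: the 10 highest-scoring of 350 to 800 bp, the 5 highest narrow and 5 highest wide, the widest and narrowest, 3 on each side of the threshold, the 5 with most companions, the 5 closest pairs, and the 3 densest and 3 sparsest chromosomes. Ties were broken by width. The class, gene list and limits were chosen with earlier results of these data known. The runs within 50 kb, the densest bins, the most remote peak and the comparison with the next 1344 peaks were added after values were seen. Python 3.11.15, numpy 2.4.6, pandas 2.3.3, scipy 1.17.1 and matplotlib 3.10.9 were used.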

Additional observations from a re-analysis of the deposited data

How the results depend on the processing

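The number of high-scoring peaks was 645 at a threshold of 1200 and 178 at 1500, by construction, and 1883 at 900. Peaks of 350 to 800 bp made up 91.6% at a threshold of 1000, 89.1% at 1200 and 81.5% at 1500, and limits of 300 and 900 bp held 95.4%. The median distance between high-scoring peaks was 430.6 kb at 900, 1187 kb at 1200 and 5836 kb at 1500, as fewer peaks entered. A companion lay within 5 kb of 11.98% and within 20 kb of 49.7%. Density was 0.239 per Mb at 1200. Of the 40 alternative values, 23 lay inside the 95% interval of the reported value, or for the count within 1.5 times it. The share with a companion within 10 kb was 28.3% after merging peaks under 500 bp apart. It was 28.9% without peaks near a long gap or within 1 Mb of a chromosome's first or last peak, a setting chosen after seeing the data, against 32.5% of other autosomal peaks. Settings that need an hg19 genome or annotation were not run. Leaving out a replicate was not possible, as replicates have no values of their own in the list. No paired analysis was possible because only 1 group exists. With unknown depth, a lower-scoring region cannot be read as less bound.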
